A study of Drosophila melanogaster with 35 samples.

Results

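The genes described are 9 core components of the Drosophila small RNA pathways, Dcr-1, loqs, AGO1, Dcr-2, r2d2, AGO2, piwi, aub and AGO3. They were taken by exact gene symbol from 2 expression tables, where all 9 were found among 15162 named genes in BG3C2 cells and among 15060 in brain, by a rule that uses no measured value, although the set was drawn up with earlier results of these data known. BG3C2 is a Drosophila cell line that the labels call neuronal. These genes bear on the experiment itself, because the depletion of DMAD in the cell line was done by RNA interference.

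Small RNAs guide Argonaute proteins to RNAs with a matching sequence. In the microRNA pathway Dicer-1, encoded by Dcr-1, cuts hairpin precursors with the help of Loquacious (loqs), and the products are loaded mostly into AGO1, which lowers translation and stability of messenger RNAs. In the siRNA pathway Dicer-2, encoded by Dcr-2, cuts long double-stranded RNA (dsRNA) from viruses, transposons or an experimenter, R2D2 helps to load the products, and AGO2 cuts the target; an isoform of Loquacious also takes part. In the piRNA pathway Piwi, Aubergine (aub) and AGO3 bind small RNAs made without Dicer and silence transposons, a process known best from the ovary and testis.

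The series compared control BG3C2 cells with cells depleted of DMAD, and wild-type brains with DMAD-knockout brains; DMAD is the fly Tet-family protein encoded by CG43444, and the modification under study was N6-methyladenine in DNA (6mA). RNA was sequenced from 3 control and 3 knockdown libraries of BG3C2 cells and from 2 control and 2 knockout libraries of brain, while the protocol speaks of duplicated RNA samples. Cells were starved of serum, given 580 bp dsRNA against CG2083, an earlier name of CG43444, and kept under renewed dsRNA until 144 hours. The sample labels call this an siRNA knockdown. What the control cells received is not described there, so exposure to dsRNA as such and loss of DMAD cannot be told apart in the cell line. The labels name no knockout allele, age or sex for the flies, and no dsRNA for the brain samples.

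The dsRNA was transcribed from a product amplified with a pair of primers, and their gene-specific parts are shown because they fix which transcript Dicer-2 and AGO2 were directed to. The gene lies on chromosome arm 3L; capitals mark the bases that match CG43444 by design, without the promoter tail for transcription, and both primers are written 5′ to 3′.
forward: CGGAGCCAGTAGTTTTCAGC
reverse: CATGGGGTTGATCTTCTCGT
Both have 20 bases, with a GC content of 55% in the forward and 50% in the reverse primer. CG43444 itself stood at 65.9 FPKM (fragments scaled by transcript length and by the library's mapped fragments) in control cells and at 34.9 FPKM in knockdown cells, which is 53.1% of the control. For that difference the authors' deposited table gives a log2 fold change of -0.91 with a Cuffdiff p of 0.0058 and a q of 0.706. In brain CG43444 was at 39.8 FPKM in control and 40.4 FPKM in knockout, so the table does not show the knockout at the level of the whole transcript; which part of the gene the allele removes is not stated in the labels.

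Each table holds 1 FPKM value per gene and group, so the spread between libraries cannot be shown for any gene and no SD is given. Beyond those values there are the authors' Cuffdiff p and q, and no library depth. Nothing in the labels says that libraries of a group came from separate cultures or fly collections, so the p-values may measure technical spread only. Marker genes place the samples as follows. Of 11 neuronal markers, 3 reached 1 FPKM in control BG3C2 cells, with elav at 12.2 FPKM but the synaptic genes n-syb at 0.382 FPKM and brp at 0.0998 FPKM, whereas all 11 did in brain, where elav was at 75.9 FPKM. Glial markers were present in the cells for 7 of 8 at 1 FPKM or more, with loco at 116 FPKM and the defining gene repo at 1.81 FPKM. Of 7 haemocyte markers 5 reached that level, with srp at 134.5 FPKM but Hml at 3.78 FPKM and He at 0.0404 FPKM. In brain, 2 of 6 tested fat body markers, the yolk protein genes Yp1 and Yp2, were called lower in knockout in the authors' deposited table, where 0.762% of all tested genes were called. Yp1 was at 624 and 225 FPKM in control and knockout, Yp2 at 383 and 142 FPKM and Yp3 at 649 and 306 FPKM. These yolk protein genes gave nearly all of the summed level of the markers, 1678 and 693 FPKM. Fbp2 had the opposite order at 1.27 and 6.59 FPKM. The part of these genes in the brain values below, and that of fly sex, which the labels do not give, was not tested.

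None of the 9 genes was called changed in BG3C2 cells, where all 9 were tested, at a Cuffdiff q below 0.05; the background was 0.254% of all tested genes called (22 of 8645). None of the 5 tested genes was called in brain, where the background was 0.762% (63 of 8266) and Dcr-1, piwi, aub and AGO3 were marked as not tested. At an unadjusted Cuffdiff p below 0.05 the number was also 0 in both tables, beside 2.31% and 3.51% of all tested genes. With backgrounds this low, counts of 0 are near what the whole tables show. The differences were also small in size. The median log2 fold change of the tested genes was -0.05 in cells and -0.02 in brain, and over all tested genes it was -0.01 in both, all from the authors' deposited tables. The furthest from 0 among the tested genes was loqs in both tables, at -0.20 in cells and -0.16 in brain, a distance that 64.3% and 46.8% of all tested genes stayed within in the authors' deposited tables.

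**Figure D1:**
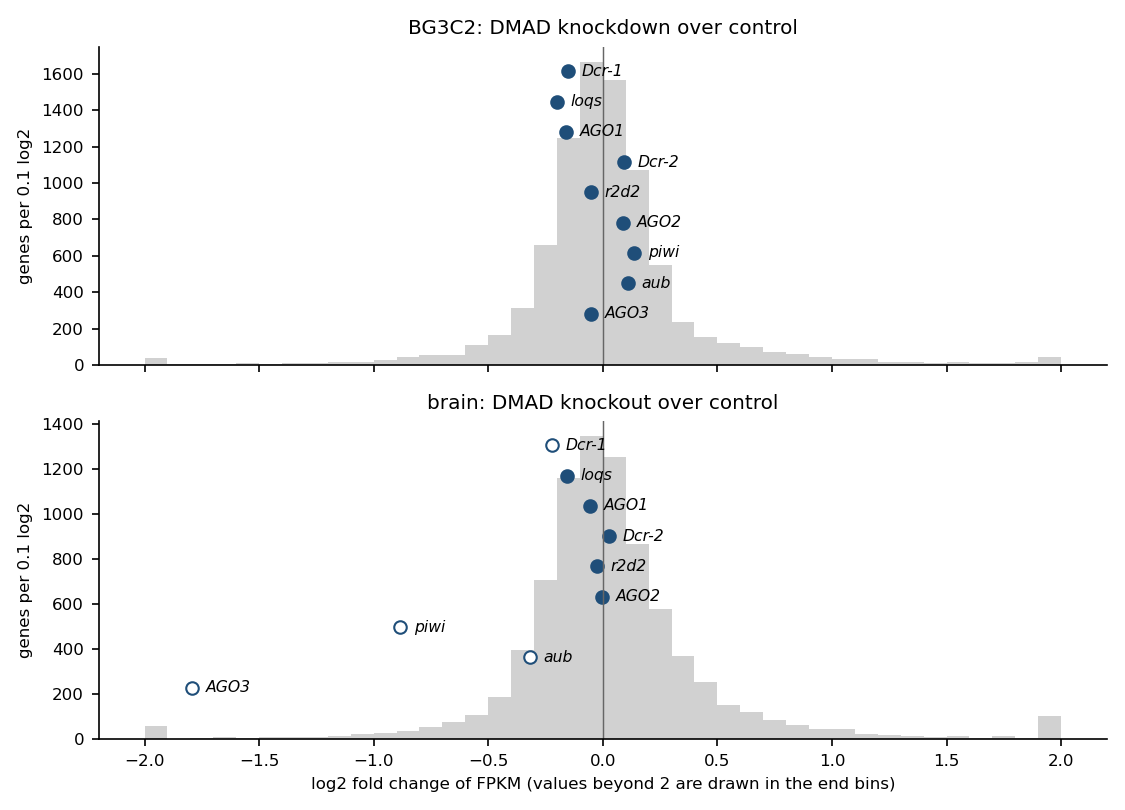
The log2 fold change of perturbed over control FPKM of each gene in BG3C2 cells and in brain, as points whose height only separates the names, with open points for genes the authors did not test, over a histogram of all tested genes in grey. Every tested point lies between -0.20 and 0.14, in the dense middle of the distribution, and the open points of AGO3 (-1.79) and piwi (-0.88) in brain come from levels near or below 1 FPKM.

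Of the microRNA genes, Dcr-1 (3R, 18559728 to 18566813, build dm3), the Dicer that makes microRNAs, was at 11.6 FPKM in control and 10.5 FPKM in knockdown cells, and at 3.35 FPKM in control and 2.87 FPKM in knockout brain. That level is percentile 51.3 of genes with an FPKM above 0 in control cells and 29.2 in control brain. The authors' deposited table gives a log2 fold change of -0.15 (Cuffdiff p 0.561) in cells and -0.22 in brain, where it was not tested. Transcripts of loqs (2L, 13382647 to 13385671), the dsRNA-binding partner of both Dicers, were at 17.7 FPKM in control and 15.4 FPKM in knockdown cells. In brain they were far more abundant than this, at 91.1 FPKM in control and 81.7 FPKM in knockout. Cuffdiff p was 0.528 in cells and 0.498 in brain in the authors' deposited tables. AGO1 (2R, 9830891 to 9845594), the main Argonaute of microRNAs, was at 54.2 FPKM in control and 48.6 FPKM in knockdown cells, and at 103 FPKM in control and 99.4 FPKM in knockout brain. The differences were -0.16 (Cuffdiff p 0.599) and -0.06 (p 0.838) on the log2 scale in the authors' deposited tables. All 3 microRNA genes had the lower value in the perturbed group in both tables, and none passed the test.

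Of the siRNA genes, Dcr-2 (2R, 13460334 to 13469031), which cuts long dsRNA, was at 64.3 FPKM in control and 68.6 FPKM in knockdown cells. In brain it stood at 8.72 FPKM in control and 8.88 FPKM in knockout. The authors' deposited tables give log2 fold changes of 0.09 (Cuffdiff p 0.784) and 0.03 (p 0.956). Its partner r2d2 (2L, 7800166 to 7802008) was at 42.1 FPKM and 40.7 FPKM in control and knockdown cells, and at 18.7 FPKM and 18.4 FPKM in control and knockout brain. On the log2 scale that is -0.05 (Cuffdiff p 0.848) in cells and -0.02 (p 0.942) in brain in the authors' deposited tables. AGO2 (3L, 15547212 to 15556165), the slicing Argonaute that carries siRNAs, was the most abundant of the 9 genes in the cells at 246 FPKM in control and 262 FPKM in knockdown, percentile 96.8 in control. In brain it was at 66.3 FPKM and 66.2 FPKM. The log2 fold changes in the authors' deposited tables were 0.09 (Cuffdiff p 0.783) in cells and -0.00 (p 0.993) in brain. After 144 hours under dsRNA, the transcripts of the 3 genes that process and use dsRNA thus stood at 96.5% to 107% of control, none of them past the test. What the control cells received is not described, so these values do not measure a response to dsRNA as such.

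Of the piRNA genes, piwi (2L, 10976768 to 10987416), the nuclear member of the family, was listed at 0.766 FPKM in control and 0.842 FPKM in knockdown cells. In brain it was at 1.49 FPKM in control and 0.808 FPKM in knockout. Aubergine, whose gene aub (2L, 10997818 to 11001489) acts in the cytoplasm of germ cells together with AGO3, was the highest of the 3 at 10.4 FPKM and 11.2 FPKM in control and knockdown cells, and at 2.68 FPKM and 2.15 FPKM in control and knockout brain. AGO3 (3L, 23547692 to 23682740) was at 2.38 FPKM in control and 2.30 FPKM in knockdown cells. It was at 0.436 FPKM in control and 0.126 FPKM in knockout brain, percentile 9.90 in control. In cells the authors' deposited table gives log2 fold changes of 0.14 for piwi (Cuffdiff p 0.948), 0.11 for aub (p 0.721) and -0.05 for AGO3 (p 0.922). In brain it gives -0.88, -0.32 and -1.79, without a test. The AGO3 difference depends on its near-zero level: on the log2(FPKM + 1) scale it was -0.35 and on the log2(FPKM + 0.1) scale -1.25.

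**Figure D2:**
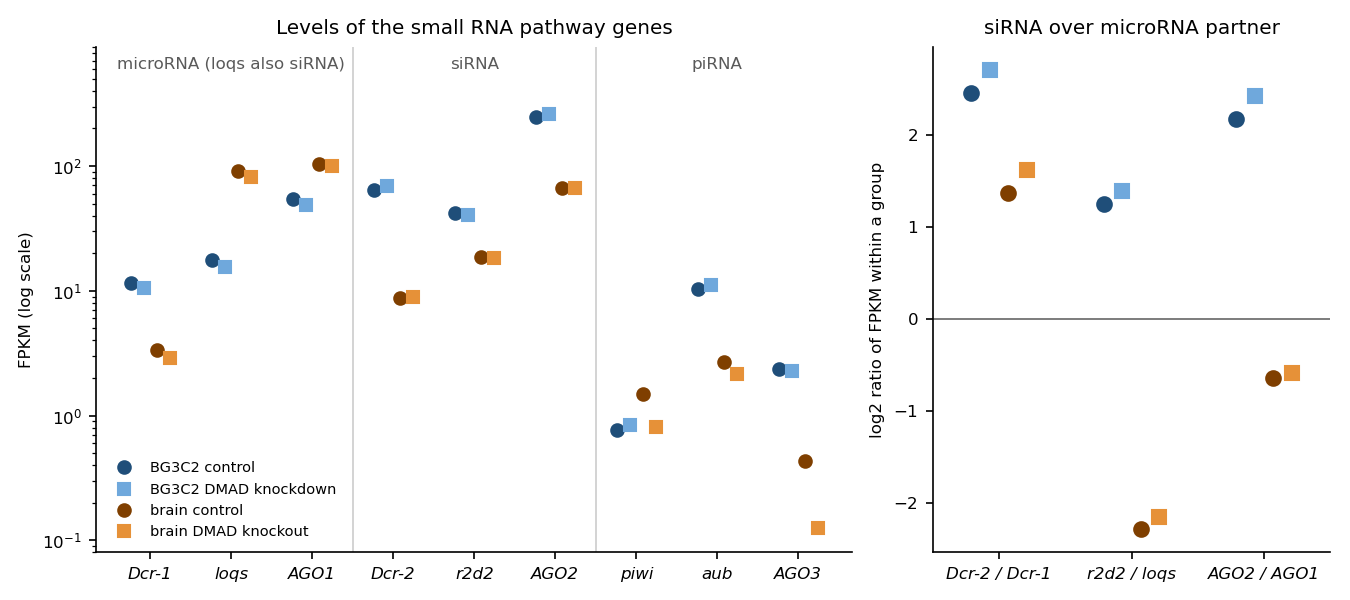
FPKM of the 9 genes, on a log axis, in control and perturbed BG3C2 cells and in control and knockout brain, 1 value per group with no error bar because the tables hold none, and in the right panel the log2 ratio of the siRNA to the microRNA partner within each group. AGO2 reaches 246 FPKM in control cells, while loqs (91.1 FPKM) and AGO1 (103 FPKM) lead in control brain, and in the right panel the r2d2 to loqs and AGO2 to AGO1 ratios lie above 0 in both groups of cells and below 0 in both groups of brain. The loqs value also includes its siRNA isoform.

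The order of the genes differed between the sample types, in values that carry no replicate error. In control cells it ran from AGO2 through Dcr-2, AGO1, r2d2, loqs, Dcr-1, aub and AGO3 to piwi. In control brain it ran from AGO1 through loqs, AGO2, r2d2, Dcr-2, Dcr-1, aub and piwi to AGO3. Because the tables were scaled separately, the balance of the pathways is best read as a ratio of FPKM within a group. AGO2 stood 4.54 times above AGO1 in control cells and 5.39 times in knockdown cells, but in brain the same ratio was below 1, at 0.642 in control and 0.666 in knockout. In the same way r2d2 was 2.38 and 2.64 times as high as loqs in control and knockdown cells, and loqs was 4.87 and 4.44 times as high as r2d2 in control and knockout brain. The ratio of Dcr-2 to Dcr-1 was above 1 in every group, at 5.52 and 6.55 in control and knockdown cells and at 2.60 and 3.09 in control and knockout brain. Dcr-2, r2d2 and AGO2 thus had the higher values of their pairs in the cell line, and AGO1 and loqs had the higher values in brain, in control and perturbed groups alike. The loqs value is for the whole gene and includes the isoform that takes part in the siRNA pathway. The r2d2 to loqs ratio therefore does not separate the 2 pathways.

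Set against all genes, the difference in level between control brain and control cells had a median of -0.61 on the log2 FPKM scale over 7168 genes with at least 1 FPKM in both. The same difference, without subtracting that median, was high in brain for loqs at 2.36, percentile 93.2, and for AGO1 at 0.93, percentile 82.4. Dcr-2 stood low at -2.88, percentile 7.20, as did aub at -1.96 (percentile 17.8) and AGO2 at -1.89 (percentile 18.8), whereas r2d2, at -1.17, was nearer the middle at percentile 34.9. Dcr-1 was at -1.80. These are differences between separately scaled tables of a cell line and an organ, with no test. The genes with the most similar levels were found by Euclidean distance of log2(FPKM + 1) over the 4 groups, for 1 gene of each pathway. Nearest to AGO1 were Lpin (0.117) and CG8929 (0.126), nearest to AGO2 were capt (0.161) and Prosbeta2 (0.216), and nearest to piwi were CG42266 (0.192) and PH4alphaSG1 (0.237). Such closeness was common, as 180 genes lay within a distance of 1 of AGO1, 120 of AGO2 and 378 of piwi.

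Some of these values may hold reads of a neighbour. AGO1, Dcr-2, AGO2 and piwi have the same locus bounds in the tables as at least 1 other gene, that is 4 of 9 genes or 44.4%, as against 44.4% of all genes in the BG3C2 table. The positions printed above for these 4 genes are such shared bounds, which may be wider than the gene. The genes at the same bounds in control cells were CG33155 at 84.7 FPKM beside AGO1, Rab4 at 85.4 FPKM and CG42239 at 140 FPKM beside Dcr-2, CG7739 at 62.4 FPKM beside AGO2, and SCAR at 46.1 FPKM beside piwi. The TruSeq RNA kit named in the labels does not mark strand, so reads from overlapping genes on opposite strands cannot be told apart. In control cells piwi, at 0.766 FPKM, lay far below the level of SCAR. In control brain piwi was at 1.49 FPKM beside SCAR at 59.3 FPKM, and AGO1 at 103 FPKM beside CG33155 at 177 FPKM. Dcr-2 was at 8.72 FPKM there, far below Rab4 at 109 FPKM, so its brain level, ratio and percentile given above carry the same limit. Among genes of the wider lists named below, Rel overlaps Nmdmc and Mst85C, Hsp83 overlaps CG14966, del overlaps CG9253 and spn-E overlaps Pbp45, with the same limit.

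Around the microRNA genes, no gene of the wider lists was called in either table. All 14 microRNA biogenesis and effector genes were tested in cells, with a median log2 fold change of -0.12 in the authors' deposited table and 12 of 14 values below 0, where 51.6% of all tested genes had a value below 0. The genes with the smallest p were pasha, the partner of Drosha, at 22.1 and 18.4 FPKM in control and knockdown cells (Cuffdiff p 0.365, authors' deposited table), and gw, the AGO1 effector GW182, at 111 and 94.7 FPKM (p 0.450). In brain 13 were tested with a median of -0.06, and pasha was at 10.7 and 12.2 FPKM in control and knockout. The decay partners, which remove caps and tails from microRNA targets, had 13 tested genes in each table, a median of -0.09 in cells with 12 values below 0, and a median of 0.04 in brain, per the authors' deposited tables. Dcp2, the decapping enzyme, was at 69.5 and 57.4 FPKM in control and knockdown cells. The small downward medians in cells stand beside a median of -0.01 over all tested genes and a median single-gene distance from 0 of 0.14.

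Around the siRNA genes, 18 loading and effector genes were tested in cells and none was called, with a median log2 fold change of -0.05 in the authors' deposited table. In brain 16 were tested and none was called, while 13 values lay below 0, beside 51.2% of all tested genes, and the median was -0.14. The lowest p there belonged to chaperones, which help to load small RNA duplexes into Argonautes. Hop was at 96.9 FPKM in control and 59.8 FPKM in knockout brain, a log2 fold change of -0.70 with a Cuffdiff p of 0.00435 and a q of 0.349 in the authors' deposited table. Hsp83, the fly Hsp90, was at 2530 and 993 FPKM, a log2 fold change of -1.35 with a p of 0.0335 and a q of 1.000 in the authors' deposited table. Both miss the q threshold, and in cells Hop was at 186 and 181 FPKM and Hsp83 at 1191 and 1144 FPKM.

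Genes that bring dsRNA into the cell had 12 tested members in cells, of which 1 rose and none fell at a Cuffdiff q below 0.05. Of all tested genes, 0.254% were called in cells. That gene was Sr-CI, a scavenger receptor of the phagocytic type, at 4.78 FPKM in control and 15.9 FPKM in knockdown cells, with a log2 fold change of 1.73 and a q of 0.0240 in the authors' deposited table. Of the other 11, 9 had values above 0, where 51.6% of all tested genes had a value below 0, and the median of the 12 was 0.19. The endosomal GTPase Rab7 was at 211 and 255 FPKM in control and knockdown cells (Cuffdiff p 0.307, authors' deposited table). In brain 12 were tested, none was called, and Sr-CI was at 3.97 and 3.81 FPKM in control and knockout. Among genes of the response to RNA viruses, none of 8 tested was called in cells. Rel, the NF-kappaB factor of the Imd pathway, was at 116 and 181 FPKM there (Cuffdiff p 0.0455, q 1.000, authors' deposited table), and vir-1, a transcript induced by fly viruses, at 219 and 304 FPKM. In brain 1 of 9 tested was called, beside 0.762% of all tested genes. That gene was Rel, which rose from 13.1 to 33.2 FPKM with a log2 fold change of 1.34 and a Cuffdiff q of 0.0248 in the authors' deposited table. Vago, an antiviral gene that depends on Dicer-2, was at 8.95 and 4.76 FPKM in control and knockout brain and did not pass the test.

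The piRNA list differed between the sample types. In cells 34 of its 36 genes were tested, or 94.4% as against 57.0% of all genes, and 33 reached 1 FPKM in the control. In brain 14 of 36 were tested, or 38.9% as against 54.9% of all genes, and 20 reached 1 FPKM. All these counts include Lsd-1 on 3R, a lipid droplet gene outside the pathway. It entered the list beside the histone demethylase gene Su(var)3-3 on 3L. Lsd-1 was at 18.2 FPKM in control cells and 14.6 FPKM in control brain. Several genes known for their work in germ cells or follicle cells, chosen here after their values were seen, were well above 1 FPKM in control cells. Among them krimp was at 52.9 FPKM in control cells and 0.186 FPKM in control brain, spn-E at 25.8 and 0.0987 FPKM, and fs(1)Yb at 36.0 and 0.0612 FPKM. The list was not uniform, since vas, a germ cell helicase whose locus bounds are shared with vig, was at 0.301 FPKM in control cells and is listed at 0 in control brain, and piwi itself was at 0.766 FPKM in the cells. Markers of the gonad were measured beside these genes, and their part in the gap was not tested. In control cells nos was at 0.162 FPKM and osk at 2.47 FPKM, and 5 of 15 gonad and germline markers reached 1 FPKM. The summed level of the markers was 99.5 FPKM in control and 90.8 FPKM in knockdown cells. Sxl, which is not confined to the gonad, gave 61.3 and 58.9 FPKM of this, and CycB3 gave 22.1 and 18.2 FPKM. In control brain 6 of 15 reached 1 FPKM, and the summed level was 147 FPKM, of which Sxl gave 124 FPKM.

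The knockdown moved none of the 34 tested genes of the piRNA list, Lsd-1 included, past a Cuffdiff q of 0.05, nor past an unadjusted p of 0.05. Their median log2 fold change was -0.09 in the authors' deposited table, with 28 of 34 values below 0, beside 51.6% of all tested genes. The smallest p was that of krimp, at 52.9 FPKM in control and 42.1 FPKM in knockdown cells (Cuffdiff p 0.220, authors' deposited table), followed by del, a partner of Rhino at piRNA clusters, at 56.2 and 45.4 FPKM (p 0.370). None of the 14 tested in brain was called either, with a median of -0.04, and the smallest p there was that of Hel25E, an RNA helicase of mRNA export, at 51.6 and 38.7 FPKM (Cuffdiff p 0.106, authors' deposited table).

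**Figure D3:**
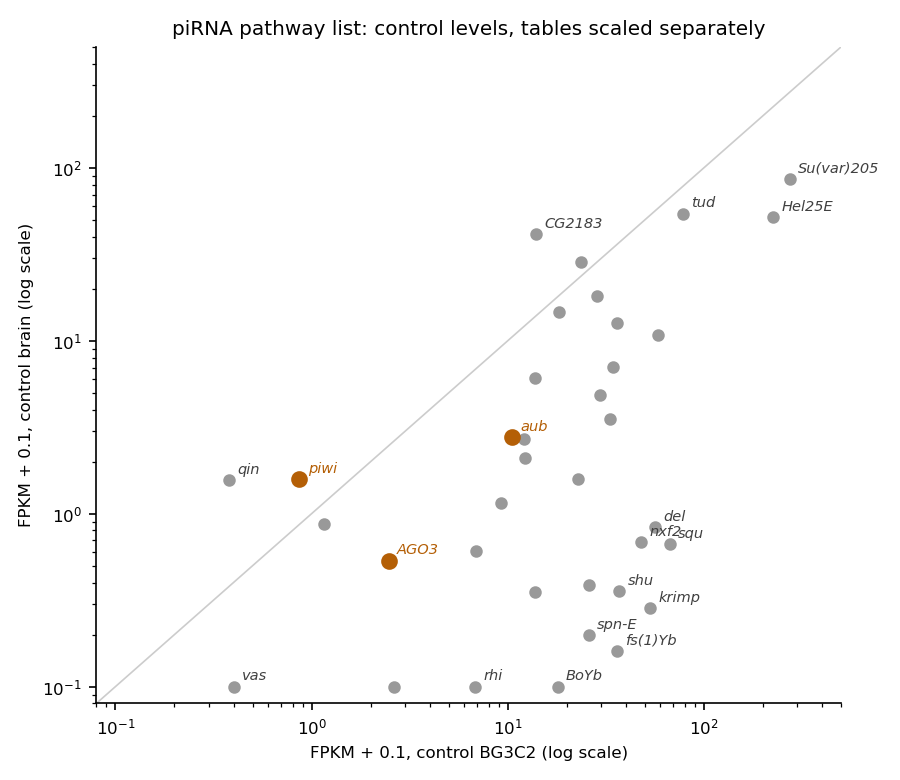
FPKM + 0.1 of the genes of the piRNA list in control BG3C2 cells against control brain, both axes on a log scale, each point 1 gene and the line marking equal values. Most points lie on the side of the cell line, such as krimp (52.9 against 0.186 FPKM), while piwi (0.766 against 1.49 FPKM) lies on the other side.

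Region lists from chromatin and 6mA sequencing were laid over the 9 loci, an overlap meaning at least 1 bp, with all 10956 distinct loci as background. A transcript table's locus has no strand, and shared bounds mean that a region cannot always be given to 1 gene. Bounds shared by several genes need not be the extent of any of them. As an example, squ and VhaSFD share bounds of 49583 bp in cells but have 19873 and 4944 bp in brain. AGO1, Dcr-2, AGO2 and piwi have the bounds of another gene, so how much of each is covered by a neighbour is not known. Only the other 5 loci, whose bounds no other gene overlaps, can be counted free of neighbours. Of those 5, H3K4me3 was at 3 in both lists, H3K27ac at 4 in control and 3 in knockdown, and polymerase II at 2 and 3. These counts are out of 5 and have no background share under the same limit, unlike the counts of 9 below. H3K4me3, a mark of active promoters, was listed at 7 of 9 loci in control and in knockdown cells, all but aub and AGO3. The background was 48.4% of all loci and 82.4% of expressed loci (at least 1 FPKM in control cells) in the control list, and 48.8% and 83.9% in the knockdown list, so 77.8% is near the share of expressed loci. The 14 control peaks at these loci were each overlapped by a peak of the knockdown list, while 94.4% of all control peaks were. The authors' peak scores are minus 10 times log10 of a p and have many ties at the top of the scale, as 39.2% of control peaks score 3100 or more. Within the control list the peak at the high-coordinate end of the Dcr-1 locus and the peak at the low-coordinate end of piwi both scored 3100, and the next was that of loqs at 2877, percentile 58.4. The peaks of r2d2 (1404, percentile 40.5) and the best of Dcr-2 (1600, percentile 42.8) and AGO2 (1048, percentile 35.9) were lower in the ranking. The Dcr-1 peak runs past the end of the locus toward vret, a neighbour at 25.9 FPKM in control cells, so it cannot be given to Dcr-1 alone. The piwi peak lies in a locus shared with SCAR, and at 0.766 FPKM for piwi the gene it belongs to cannot be told apart.

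H3K27ac, a mark of active promoters and enhancers, was listed at 8 of 9 loci in control cells (background 54.0% of all and 88.9% of expressed loci) and at 7 of 9 in knockdown cells (54.2% and 88.8%). The difference between the lists rests on weak peaks. The only aub peak scored 60.6, percentile 6.34 of the control list, and had no counterpart in the knockdown list, and the same held for a second loqs peak of 53.8, percentile 2.48. One AGO1 peak of 89.8, percentile 17.1, was in the knockdown list alone. Neither H3K27ac nor RNA polymerase II has a sample entry among the labels, so the libraries behind those lists are not described here. The control polymerase list carries the cell name BG3C3 and the knockdown list BG3C2, and whether this marks other cells is not stated.

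RNA polymerase II was listed at 6 of 9 loci in the control list (background 43.0% of all and 67.3% of expressed loci) and at 7 of 9 in the knockdown list (37.8% and 42.4%). The nearest control peaks lay only 305 bp from loqs and 353 bp from r2d2. With each locus extended by 1 kb the counts were 8 and 9 of 9, with no background for that setting. The number of peaks was 3 in control and 1 in knockdown at AGO1, at AGO2 and at piwi, 2 in both at Dcr-1 and 1 in both at Dcr-2, while AGO3 had 2 in control and 3 in knockdown and aub had 0 and 1. Of the 14 control H3K4me3 peaks at the loci, 7 overlapped a polymerase peak of the control list and 1 overlapped one of the knockdown list. Over all control H3K4me3 peaks these shares were 65.7% and 31.3%, so the lists differ across the genome in the same direction. Of H3K4me3 peaks with polymerase in the control list, 6 of 7 at the loci and 57.7% of all had none in the knockdown list. Only 50.3% of all control polymerase peaks overlapped a knockdown peak, compared with 93.3% for H3K27ac, and the polymerase lists held 733 and 236 peaks on the X chromosome. With 1 list a condition the difference has no replicate check, and the transcript levels of AGO1, AGO2 and piwi did not pass the test.

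**Figure D4:**
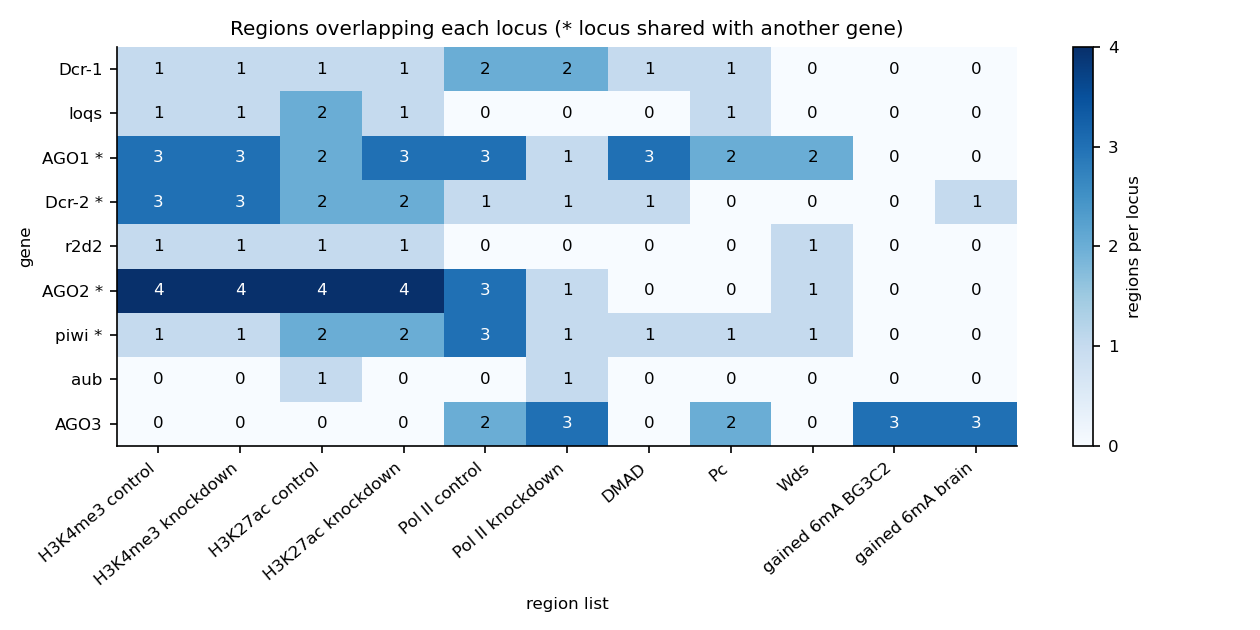
Number of regions of each of the 11 lists that overlap each of the 9 loci, as a grid with the count in each cell. The rows for AGO1 and piwi carry regions of 9 of the 11 lists, aub has a region in 2 lists only, and AGO3 is the locus with gained 6mA in both the cell and the brain list.

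DMAD itself was listed at 4 of 9 loci, Dcr-1, AGO1, Dcr-2 and piwi, with a background of 37.0% of all loci, 48.9% of loci of like length and 54.4% of expressed loci. At Dcr-1 the DMAD region covers positions 3944 to 8015 counted from the low-coordinate end of the locus, where the H3K4me3 peak also lies (5005 to 8070). At Dcr-2 it only reaches into the low-coordinate edge of the locus and lies mostly outside. At piwi it covers -47 to 2426, over the H3K4me3 peak at -161 to 1996. Pc, the Polycomb protein, was listed at 5 loci, Dcr-1, loqs, AGO1, piwi and AGO3 (background 36.7%), and Wds, a subunit of complexes that methylate H3K4, at 4, AGO1, r2d2, AGO2 and piwi (29.0%). The series holds 2 control and 2 knockdown libraries for Pc, and 1 of each for Wds. Which of them were merged into the Pc and Wds lists is not stated, so these regions cannot be assigned to control cells alone. AGO1 and piwi were the loci with DMAD, Pc and Wds regions together. At AGO1 these met between 10237 and 11347, where an H3K4me3 peak (10131 to 11687) also lies. Counts of 4, 5 and 4 of 9 are near the shares of expressed loci, which were 54.4%, 47.2% and 47.6%. Among the 5 loci whose bounds no other gene overlaps they were 1, 3 and 1, and the 4 shared loci could not be counted there. Wds was at 2 of 9 loci when at least 50% of a region had to lie in the locus. With each locus extended by 1 kb, DMAD was at 6 of 9, Pc at 5 and Wds at 5, with no background for that setting. DMAD regions lay 200 bp from loqs and 387 bp from aub.

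**Figure D5:**
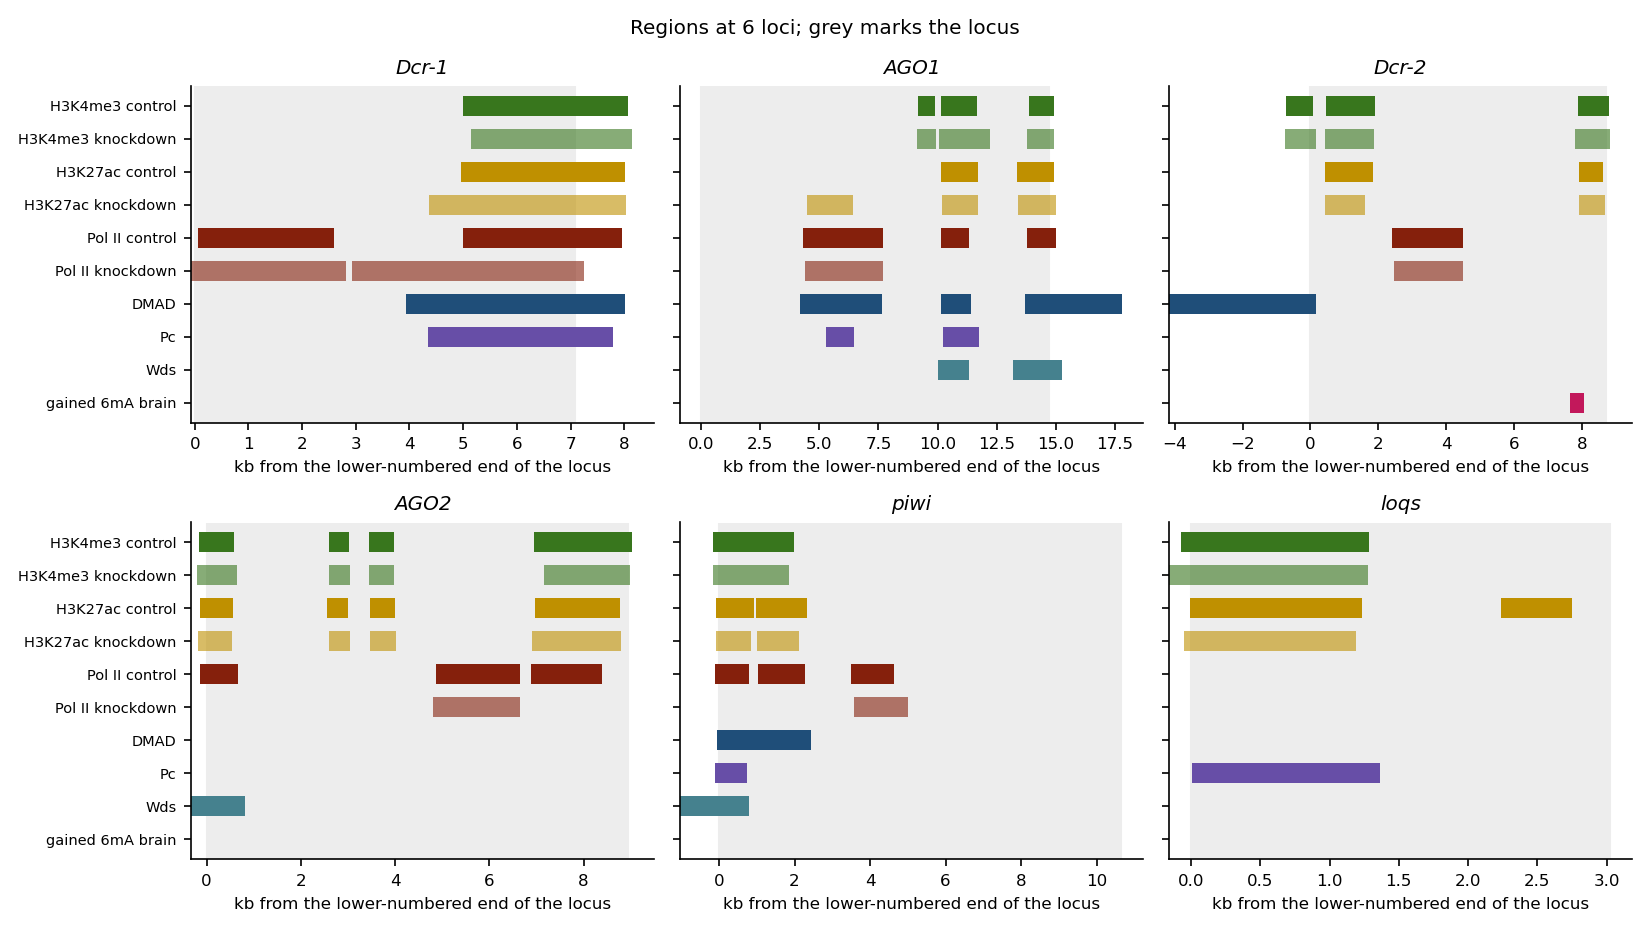
Regions of each list along 6 loci, as bars at their distance in kb from the lower-numbered end of the locus, with 1 row per list and the locus in grey. At AGO1 and piwi the DMAD, Pc, Wds and H3K4me3 regions lie over one another, and at Dcr-2 the gained brain region lies at 7645 to 8052 bases, over H3K4me3 peaks of the cell line.

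Regions that gained 6mA on depletion of DMAD overlapped 1 of 9 loci in BG3C2 cells, AGO3 with 3 windows, where 16.8% of all loci, 18.6% of expressed loci and 24.4% of loci of like length had one. In knockout brain they overlapped 2 of 9, AGO3 with 3 regions and Dcr-2 with 1, where 15.9%, 18.2% and 23.5% did. The series holds 1 control and 1 knockout 6mA library of brain, so the brain gains have no replicate check. For the cells it holds 3 control and 3 knockdown 6mA libraries. The AGO3 locus is long, at 135048 bp, and its 3 regions per list amount to 2.22 per 100 kb, below the 4.67 and 3.70 per 100 kb of the whole arm 3L in the cell and brain lists. Of 93 loci of at least 100 kb, 82.8% held a gained region in the cell list and 84.9% in the brain list. The locus had no H3K4me3, H3K27ac, DMAD or Wds region, and its transcript was at 2.38 and 2.30 FPKM in control and knockdown cells. The region at the Dcr-2 locus in brain is 407 bp long and lies near the high-coordinate end of the locus. Rab4 and CG42239 have the same bounds, so the region cannot be given to Dcr-2 alone. It overlapped H3K4me3 peaks of BG3C2 cells by 187 and 267 bp in control and knockdown and H3K27ac peaks by 158 and 156 bp, and no region of the DMAD, Pc or Wds lists, all of them from the cell line and not from brain. Dcr-2 was at 8.72 FPKM in control and 8.88 FPKM in knockout brain. At the same bounds Rab4 was at 109 and 107 FPKM and CG42239 at 15.4 and 10.2 FPKM, neither called changed.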

How the data were processed

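RNA was measured as 1 FPKM value per gene and group; the authors' Cuffdiff tables were deposited with these FPKM values, log2 fold changes, p-values and q-values, per the file headers. The submitters' processing notes name TopHat2 2.0.8, Cuffdiff 2.2.1, Bowtie 0.12.9, MACS 1.4.2 and dm3 without roles (the mouse build mm9 is also listed). Region lists were deposited by the authors with positions, and for H3K4me3, H3K27ac and polymerase II with a score, read as minus 10 times the log10 p-value that MACS writes for a peak. The gained BG3C2 windows were read as counting from 1 and the other lists from 0. Per table, a single row without a gene name was left out, and 0 columns of per-sample values were left unused. Depth is unknown, as no file holds counts.

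The members and gene lists were chosen with earlier results of these data known. Calls are the authors' (tested, q below 0.05); no model was fitted, since no value per library is given. Of each list, the 4 genes with the smallest p could be named, and for AGO1, AGO2 and piwi the 2 nearest genes. Of 161 listed names 154 matched, 11 of them through a CG number or current symbol. Backgrounds are all distinct loci, loci of a length within the members' range, and loci with at least 1 FPKM in control cells. The last of these, the ratios within a group, the polymerase share of all H3K4me3 peaks and the count without shared loci were chosen after seeing the data. Percentiles are among genes with FPKM above 0. Overlap counting was checked on simulated data. Python 3.11.15, pandas 2.3.3, numpy 2.4.6, SciPy 1.17.1 and matplotlib 3.10.9 were used. Protein and promoter sequences were not used here.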

Additional observations from a re-analysis of the deposited data

How the results depend on the processing

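The number of members called stayed at 0 under a q of 0.01 or 0.10, an unadjusted p below 0.05 and the expression filters, and the members' median log2 fold change moved by less than 0.1 under every pseudocount and filter tried. Of the single log2 fold changes, 51 stayed within 0.1 and 3, of piwi and AGO3 in brain under a pseudocount, moved further, without a change of sign. The calls of Sr-CI in cells, of Rel in brain and of both fat body genes in brain were lost at a q below 0.01. Counts of member loci with a region could be repeated without shared bounds only for the 5 loci whose bounds no other gene overlaps. The other 4 have the same bounds as another gene and drop out by construction. Of the 5, H3K4me3 was at 3 in the control and 3 in the knockdown list, H3K27ac at 4 and 3, and polymerase II at 2 and 3. DMAD was at 1, Pc at 3, Wds at 1 and gained brain 6mA at 1. Of all 9 loci, with the upper 50% of peaks by score, H3K4me3 was at 4 in control and 3 in knockdown. Wds was at 2 of 9 when at least 50% of a region had to lie in the locus. With each locus extended by 1 kb, polymerase II was at 8 of 9 in the control and 9 of 9 in the knockdown list, and DMAD at 6. No paired analysis was possible because the tables hold 1 value per group and none per library; for the same reason no replicate could be left out.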
